A study of Mus musculus with 6 samples.

Results

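The genes described here are 41 genes of the Hippo-YAP pathway and the actin cytoskeleton, chosen by name from their known functions. All 41 were among the 18057 genes of the deposited table, and 38 of them had enough counts to be tested among 14149 genes. RNA came from group 2 innate lymphoid cells (ILC2s), lymphocytes that make type 2 cytokines, sorted from mouse lung. The Piezo1 KO group had the genotype Il7rcrePiezo1flx, a Cre recombinase under the IL-7 receptor gene Il7r with a floxed Piezo1 gene, and the WT group had the genotype Il7rcre, the driver without the floxed gene, so that the controls carry Cre too. Il7r is used by lymphocytes and their progenitors in general, so the driver is not limited to ILC2s. Both groups had received 3 intranasal doses of 1 µg recombinant IL-33, and the sorted cells were then cultured with 10 ng/mL IL-2 and 10 ng/mL IL-7 over 24 h. Each group had 3 libraries. The labels do not give the age of the mice or whether each library is a different animal. A p-value here reflects the variation among 6 libraries, and that variation may be technical.

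Piezo1 encodes a cation channel that opens under membrane tension. Mechanical load on a cell is carried by actin filaments, which integrin adhesions anchor through talin and vinculin, which small GTPases assemble and which myosin II pulls on. In the Hippo pathway the MST kinases and their scaffold activate the LATS kinases, and LATS phosphorylation keeps the coactivators YAP and TAZ out of the nucleus, where they otherwise act with TEAD factors. In epithelial and stromal cells this pathway is known for reading stiffness and actin tension. Lymphocytes are known for high levels of the leukocyte forms of the actin machinery, such as RAC2, WASP and coronin 1A.

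Among the 38 tested members, 1 was higher (Gsn) and 1 was lower (Wwtr1) in Piezo1 KO ILC2s at an adjusted p under 0.05, and 36 did not pass (edgeR quasi-likelihood test, Benjamini-Hochberg adjustment over all genes tested). Across all genes tested the same rule called 1.51% of genes, 1% as higher and 0.509% as lower. Gsn encodes gelsolin, which severs and caps actin filaments, and Wwtr1 encodes TAZ. The median log2 fold change (Piezo1 KO minus WT) was −0.0072 over the tested members and 0.018 over all genes tested, and 20 of the 38 members (52.6%) had a value below 0, as 47% of all genes did. The members together took 4.87%, 4.78% and 4.52% of the scaled counts in the Piezo1 KO libraries and 4.85%, 4.92% and 4.90% in the WT libraries. Of the 38 fold changes, 25 had a 95% interval inside a 1.5-fold change in either direction and 34 had one inside a 2-fold change. The SE of the log2 fold change had a median of 0.117 over the members.

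To show the start regions of the members described first, 4 windows of 300 bases are given, from RefSeq on build GRCm38.p6, which is mm10. Each runs from 250 bases before to 50 bases after an annotated start, 5′ to 3′ on the gene's strand. Wwtr1 and Gsn are the 2 members called, and Vcl and Actg1 are the members whose windows hold a CArG box, the motif bound by the actin-responsive factor SRF. Capitals mark the letters GGAATG, a core motif of TEAD factors, searched on both strands, and the CArG box.
Wwtr1 (chr3:57575861-57576160, minus strand): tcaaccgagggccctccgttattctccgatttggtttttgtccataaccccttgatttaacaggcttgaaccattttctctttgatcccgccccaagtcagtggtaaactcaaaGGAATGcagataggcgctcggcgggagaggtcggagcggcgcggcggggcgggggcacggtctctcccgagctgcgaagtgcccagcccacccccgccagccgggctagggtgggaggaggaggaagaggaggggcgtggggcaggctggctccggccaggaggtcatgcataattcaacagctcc
Gsn (chr2:35256109-35256408, plus strand): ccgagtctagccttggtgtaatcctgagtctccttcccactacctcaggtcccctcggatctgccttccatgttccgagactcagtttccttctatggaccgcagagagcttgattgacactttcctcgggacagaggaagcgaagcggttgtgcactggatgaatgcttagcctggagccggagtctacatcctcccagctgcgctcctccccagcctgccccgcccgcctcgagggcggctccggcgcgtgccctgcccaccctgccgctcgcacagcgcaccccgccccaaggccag
Vcl (chr14:20929148-20929447, plus strand): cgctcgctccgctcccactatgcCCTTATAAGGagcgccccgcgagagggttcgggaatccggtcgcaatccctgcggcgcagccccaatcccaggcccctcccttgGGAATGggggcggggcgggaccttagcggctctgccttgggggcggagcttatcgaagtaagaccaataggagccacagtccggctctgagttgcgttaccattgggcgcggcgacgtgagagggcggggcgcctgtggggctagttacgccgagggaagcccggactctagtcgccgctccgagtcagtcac
Actg1 (chr11:120348446-120348745, minus strand): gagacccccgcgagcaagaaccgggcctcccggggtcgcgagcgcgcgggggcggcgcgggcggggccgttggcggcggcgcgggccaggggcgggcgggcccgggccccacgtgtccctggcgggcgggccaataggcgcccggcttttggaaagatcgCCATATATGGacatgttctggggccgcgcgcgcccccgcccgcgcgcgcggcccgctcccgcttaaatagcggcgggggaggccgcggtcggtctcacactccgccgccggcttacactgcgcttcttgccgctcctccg

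The Wwtr1 window held GGAATG, the Vcl window held both motifs without overlap between them, the Actg1 window held a CArG box, and the Gsn window held neither. RefSeq gives Wwtr1 2 starts and Gsn 3, of which the most upstream is shown, and a count per gene does not tell which start was used. Windows were given for 32 of the 41 members, and Actb was among the members without one, so it was not searched. There were 40 windows in all, of which 11 (27.5%) held GGAATG and 2 (5%) a CArG box. Among all 32851 windows of this length the shares were 14.7% and 1.63%. These matches describe letters in the windows only.

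Library depth was between 13059046 and 33459904 estimated counts. On the principal components of log2 CPM, WT replicate 2 stood apart on the first (49.0% of the variance, at 77.6 against −27.6 to 1.68 in the other 5 libraries) and WT replicate 3 on the second (26.4%, at −51.8 against −9.37 to 23.1). The 2 libraries also differed by transcript length. Relative to the mean library, genes with 1.5 kb of exons were at −0.22 (log2) in WT replicate 2 and at 0.21 in WT replicate 3, and genes with 10 kb at 0.11 and −0.18. Piezo1, the targeted gene, was at 150.05, 109 and 122 TMM-scaled CPM (counts scaled to the library total, with a factor between libraries) in Piezo1 KO and at 247, 278 and 160.03 CPM in WT, and every Piezo1 KO library was below every WT library. The log2 fold change was −0.85 ± 0.21 (SE, adjusted p = 0.112, edgeR), and without WT replicate 3 it was −1.05 (adjusted p = 0.0163). A count over the whole gene includes exons outside the floxed part.

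The 14 ILC2 defining genes were all in the table and all tested. They summed to 13819.7 to 14776 CPM in Piezo1 KO and 11991 to 12875 CPM in WT, mostly Il5 and Il2ra. Of their fold changes, 9 were positive and 5 negative. Of the 14, 1 rose and 2 fell in edgeR, 12 had an unadjusted p under 0.05 and 10 did not overlap between the groups. Over all genes tested the shares were 1.51% called, 13.2% with such a p and 20.6% without overlap. DESeq2 called 6 of the 14 (Gata3, Icos, Il17rb, Il5, Il7r and Thy1), and limma-voom called 6. Gata3 had a negative fold change, at 703 to 789 CPM in Piezo1 KO and 954 to 1035 CPM in WT (adjusted p = 0.0612, edgeR). Il5 had a positive one, at 4578 to 5483 CPM in Piezo1 KO and 3986 to 4082 CPM in WT (adjusted p = 0.120, edgeR). Il7r, the gene that also drives Cre, fell, at 30.5 to 34.3 CPM in Piezo1 KO and 58.3 to 74.8 CPM in WT, and Icos, a costimulatory receptor gene, fell, at 220.5 to 244 CPM in Piezo1 KO and 345 to 371 CPM in WT. Il17rb, the IL-25 receptor gene, rose, at 62.4 to 68.7 CPM in Piezo1 KO and 37.4 to 43.1 CPM in WT. The summed markers of other cells differed between the groups. The T-bet gene Tbx21 was at 0 in all 3 Piezo1 KO libraries, and Hba-a2 was at 0 in all 3 WT libraries. Of 18 stromal, epithelial and endothelial markers, 6 were in the table and summed to 90.6 to 95.6 CPM in Piezo1 KO and 54.3 to 62.9 CPM in WT, mostly Pecam1, which lymphocytes also use, while the fibroblast collagen gene Col1a1 was at 0.13 to 0.34 CPM in Piezo1 KO and 0 to 0.21 CPM in WT. Of 18 myeloid and mast cell markers, 13 were in the table and summed to 137 to 147 CPM in Piezo1 KO and 182 to 244 CPM in WT. Most of this sum was 1 gene, Kit, at 122 to 135 CPM in Piezo1 KO and 162 to 228 CPM in WT. Of the 7 myeloid markers tested, Kit included, 2 fold changes were positive and 5 negative. Of 16 T, B and NK cell markers, 8 were in the table and summed to 81.3 to 106 CPM in Piezo1 KO and 48.2 to 54.5 CPM in WT, mostly Ighm and Cd3g. Ighm was higher, at 57.9 to 77.1 CPM in Piezo1 KO and 15.9 to 23.7 CPM in WT. Cd3g had a negative fold change, at 17.8 to 23.9 CPM in Piezo1 KO and 23.4 to 31.7 CPM in WT. Of the 6 tested, 3 fold changes were positive and 3 negative. Of 9 platelet and erythroid markers, 6 were in the table and summed to 27.1 to 31.6 CPM in Piezo1 KO and 4.81 to 5.40 CPM in WT, mostly Hba-a1. The part of such cells in the values below was not tested, and in bulk RNA fewer cells of a type and less RNA per cell cannot be told apart.

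RNA of the upstream arm of the pathway was present, while at its end Wwtr1 (TAZ) was low and Yap1 (YAP), Tead1 and Tead2 were almost absent. Per kilobase of merged exons, which allows genes to be compared, Mob1a and Stk4 had the highest levels of the 8 core genes, at 58.7 and 41.4 CPM per kb in Piezo1 KO and 57.3 and 41.1 CPM per kb in WT. Mob1a encodes the cofactor that LATS kinases need, and Stk4 the kinase MST1. Nf2, which encodes the membrane-linked activator merlin, followed at 17.2 CPM per kb in Piezo1 KO and 16.4 CPM per kb in WT. Lats1, Lats2, Stk3 (the kinase MST2) and Sav1, the scaffold of the MST kinases, lay between 1.77 and 5.36 CPM per kb in Piezo1 KO and between 2.00 and 4.86 CPM per kb in WT. Ajuba, a LIM protein that holds back LATS, was lowest at 0.21 CPM per kb in Piezo1 KO and 0.30 CPM per kb in WT.

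None of the 8 core genes passed the test (edgeR), 0 had an unadjusted p under 0.05, where 13.2% of all genes did, and DESeq2 and limma-voom called 0. Stk4 was at 241, 225 and 262 CPM in Piezo1 KO and at 264, 256 and 203 CPM in WT, so the groups overlapped. Mob1a was at 301, 259.5 and 284 CPM in Piezo1 KO and at 288, 304 and 232 CPM in WT. Nf2 was at 123, 114 and 114 CPM in Piezo1 KO and at 116, 117 and 103 CPM in WT, a log2 fold change of 0.06 with a 95% interval of −0.15 to 0.28. Lats2 had the lowest fold change of the kinases on the log2 scale, −0.29 ± 0.18 (SE, adjusted p = 0.563, edgeR), and 42.4% of its exon bases are shared with another annotated gene on the same strand. Ajuba rested on 10 to 33 counts per library, and its interval, −1.62 to 0.65, was among the widest of the members.

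Wwtr1 (chromosome 3, 57455649 to 57575910 in mm10, minus strand), whose protein TAZ is a coactivator of TEAD factors, fell. Wwtr1 was at 3.68, 3.14 and 3.29 CPM in Piezo1 KO, which rested on 87, 91 and 77 counts, and at 6.64, 8.51 and 7.95 CPM in WT, which rested on 132, 285 and 106 counts. Every Piezo1 KO library was below every WT library. The mean was 3.37 ± 0.28 CPM in Piezo1 KO and 7.70 ± 0.96 CPM in WT (SD, n = 3 each). The log2 fold change was −1.19 ± 0.20 (SE, 95% interval −1.66 to −0.72, adjusted p = 0.0317, edgeR). The value lay between −1.29 and −1.11 under 14 other ways of processing, but the adjusted p passed in 8 of them. It missed the threshold without Piezo1 KO replicates 1 (0.123), 2 (0.203) and 3 (0.157) and without WT replicates 1 (0.113) and 3 (0.0505), and passed without WT replicate 2 (0.0293). Of the 5 stromal, epithelial and endothelial markers tested, 2 rose and 3 did not pass. Pdgfrb of pericytes and Pecam1 of endothelium rose, to 5.13 to 7.90 CPM and 65.3 to 71.4 CPM in Piezo1 KO, against 0.67 to 1.56 CPM and 40.8 to 46.3 CPM in WT. The epithelial cadherin gene Cdh1 had a negative fold change like Wwtr1, at 0 to 0.21 CPM in Piezo1 KO and 0.75 to 1.02 CPM in WT (adjusted p = 0.151, edgeR). The epithelial genes Krt18 and Epcam had positive ones, with Krt18 at 2.09 to 2.42 CPM in Piezo1 KO and 1.06 to 1.72 CPM in WT, and Epcam at 13.8 to 18.3 CPM in Piezo1 KO and 10.2 to 15.3 CPM in WT. The part of such cells in the fall of Wwtr1 was not tested.

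Yap1, Tead1 and Tead2 did not pass the filter on low counts and were not tested. Yap1, which encodes the TAZ paralog YAP, had 3, 1 and 9 counts in Piezo1 KO and 0, 7 and 0 counts in WT. Tead1, a DNA-binding partner of both coactivators, had 1, 0 and 1 counts in Piezo1 KO and 1, 3 and 5 counts in WT. Tead2, a related TEAD factor, had 5, 18 and 7 counts in Piezo1 KO and 6, 14 and 5 counts in WT. Each of these 3 genes therefore stayed at or below 0.62 CPM in every library, and a difference between the groups was not detectable at this depth. The other TEAD genes, Tead3 and Tead4, were not in the deposited table. Per exon kilobase, Wwtr1 made up 98.3%, 99.4% and 94.3% of the sum of Wwtr1 and Yap1 in Piezo1 KO and 100%, 98.7% and 100% in WT.

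**Figure D1:**
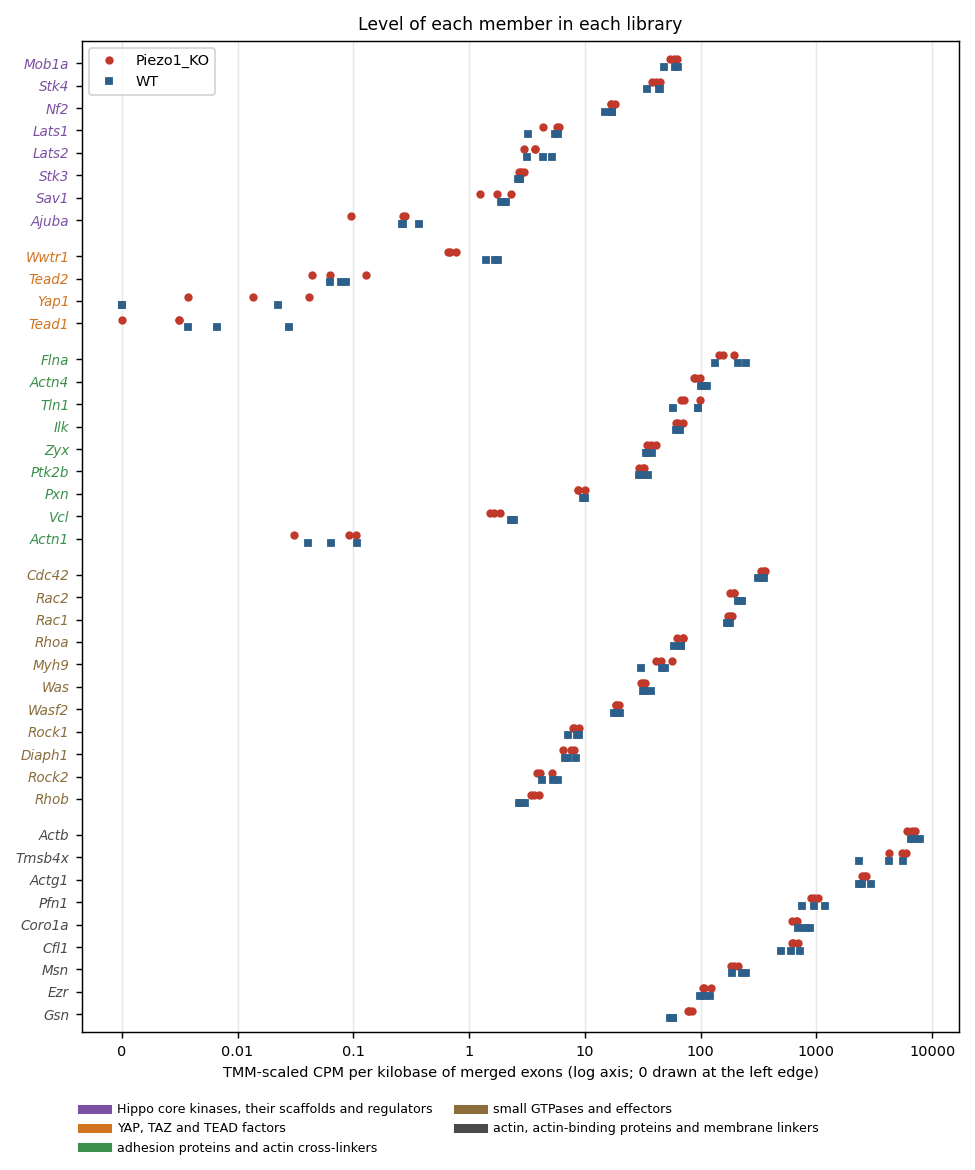
Level of the 41 members in each library, in TMM-scaled CPM per kilobase of merged exons on a log axis, with Piezo1 KO libraries as circles above WT libraries as squares, grouped by role. A value of 0 is drawn at the left edge. Actb is at the top of the range and Yap1 and Tead1 are at its foot, and Wwtr1, Vcl and Gsn are among the rows in which the 2 groups separate.

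Genes that would report on the pathway were described from lists chosen by function. Of 24 symbols of YAP/TAZ target genes, 14 were in the table and 10 were tested. Some of the 24 are an older and a newer name of the same gene. The targets Cyr61 (also Ccn1), Ctgf (also Ccn2) and Ankrd1 were not in the table. Of the 10 tested, edgeR called 1 higher and 0 lower and 9 did not pass, with a median log2 fold change of 0.08. The unadjusted p was under 0.05 for 3 of the 10 (Nt5e, Crim1 and Myc), and DESeq2 and limma-voom each called 2 (Nt5e and Crim1). Over all 14149 genes tested, 13.2% had such a p, and DESeq2 called 593 and limma-voom 439. Nt5e, which encodes the ectonucleotidase CD73, rose, at 20.3, 18.4 and 20.5 CPM in Piezo1 KO and 12.9, 11.8 and 9.52 CPM in WT (log2 fold change 0.78 ± 0.15 SE, adjusted p = 0.0482, edgeR). Crim1, which encodes a membrane protein that binds bone morphogenetic proteins, had the opposite sign, at 8.75, 9.64 and 11.96 CPM in Piezo1 KO and 16.1, 16.3 and 16.1 CPM in WT (−0.68 ± 0.16 SE, adjusted p = 0.0923, edgeR). Myc, a growth-promoting transcription factor gene, was at 141, 132 and 122 CPM in Piezo1 KO and 161, 141 and 178 CPM in WT (−0.28 ± 0.11 SE, adjusted p = 0.325, edgeR). The groups did not overlap for 4 of the 10 (Nt5e, Crim1, Myc and Arhgef17), and for 20.6% of all genes tested. Arhgef17 was higher in Piezo1 KO, at 0.52 to 0.98 CPM against 0.30 to 0.45 CPM in WT (adjusted p = 0.594, edgeR). The call for Nt5e was lost without each of the 6 libraries (adjusted p from 0.0505 to 0.198). Of 37 symbols of other Hippo pathway genes, 29 were in the table and 28 were tested. Of these 28, 0 passed in edgeR, 4 had an unadjusted p under 0.05 and DESeq2 called 1, Scrib. Scrib, which encodes a cell polarity scaffold, was at 26.5, 21.0 and 35.3 CPM in Piezo1 KO and 44.7, 51.3 and 41.7 CPM in WT (log2 fold change −0.74 ± 0.19 SE, adjusted p = 0.125, edgeR). The median of these 28 genes was −0.0076.

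Among the 9 adhesion proteins and actin cross-linkers, Vcl stood at the low end of the fold changes, and 0 passed in edgeR. The unadjusted p was under 0.05 for 2 of the 9, Vcl and Actn4, and for 13.2% of all genes. DESeq2 and limma-voom each called 1, Vcl. Vcl encodes vinculin, which links talin to actin and reinforces adhesions under load. It was at 15.2, 13.5 and 12.3 CPM in Piezo1 KO and at 19.97, 18.9 and 19.2 CPM in WT, with every Piezo1 KO library below every WT library. Its log2 fold change was −0.50 ± 0.13 (SE, 95% interval −0.80 to −0.21, adjusted p = 0.131, edgeR), and the adjusted p was 0.0491 in DESeq2 and 0.0397 in limma-voom with quality weights. The assignment of reads to Vcl is uncertain, since 25.5% of its exon bases are also exons of Ap3m1 on the opposite strand and whether the counting used strand is not stated.

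Actn4, which encodes the non-muscle actin cross-linker alpha-actinin-4, was at 604, 544 and 538 CPM in Piezo1 KO and at 661, 699 and 622 CPM in WT, without overlap between the groups (log2 fold change −0.23 ± 0.09 SE, adjusted p = 0.312, edgeR). Its paralog Actn1 was close to absent, at 0.17 to 0.59 CPM in Piezo1 KO and 0.22 to 0.60 CPM in WT, and Actn4 made up on average 99.9% of the pair per kilobase in both groups. Flna, which encodes the cross-linker filamin A, was the most abundant adhesion gene per kilobase and differed between WT replicates 2 and 3. It was at 1813, 1366 and 1469 CPM in Piezo1 KO and at 1962, 2320.05 and 1239.7 CPM in WT, and with 9.40 kb of exons it is one of the long transcripts that were low in WT replicate 3. Tln1, which encodes talin and has 9.80 kb of exons, was at 659 to 965 CPM in Piezo1 KO and was also low in that WT library, at 571 CPM beside 925 and 927 CPM in WT replicates 1 and 2. Without WT replicate 3 the log2 fold change of Tln1 was −0.26, and with all 6 libraries it was −0.06.

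The other adhesion members had narrow intervals around 0. Zyx, which encodes the tension-sensitive LIM protein zyxin, was at 222, 200.2 and 185 CPM in Piezo1 KO and at 183, 206 and 185 CPM in WT. Pxn, which encodes the adaptor paxillin, was at 72.1 to 82.8 CPM in Piezo1 KO and 78.4 to 81.8 CPM in WT. Ptk2b, the focal adhesion kinase relative PYK2 of blood cells, was at 217 to 241 CPM in Piezo1 KO and 219 to 259 CPM in WT. Ilk, which encodes integrin-linked kinase, had a log2 fold change of 0.02 ± 0.09 (SE), but 76.7% of its exon bases overlap Taf10 on the opposite strand. The 95% intervals of Zyx, Pxn, Ptk2b and Ilk all lay between −0.30 and 0.31.

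**Figure D2:**
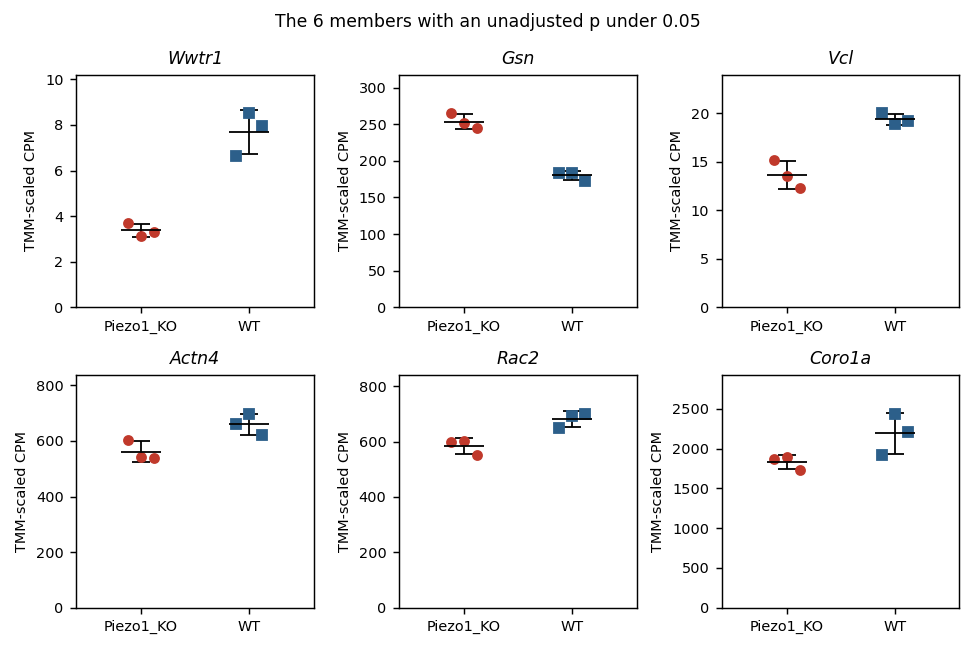
TMM-scaled CPM in each library for the 6 members with an unadjusted p under 0.05, with Piezo1 KO libraries as circles to the left of WT libraries as squares, and the mean ± SD (n = 3) as lines. In each panel the groups do not overlap, and Gsn is the one that is higher in Piezo1 KO.

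The 11 small GTPases and their effectors ranged widely in level, and none was called. Of the 11, 0 passed in edgeR, 1 had an unadjusted p under 0.05 (Rac2), which 13.2% of all genes had, and DESeq2 called 0. Cdc42, the GTPase of filopodia and polarity, was highest at 346 CPM per kb in Piezo1 KO and 336 CPM per kb in WT. Rac2, the blood cell form of the lamellipodial GTPase RAC, and Rac1, its general form, followed at 188 and 179 CPM per kb in Piezo1 KO and 219.5 and 175 CPM per kb in WT. Rac2 was at 599, 602 and 553 CPM in Piezo1 KO and at 649, 694 and 701 CPM in WT, every Piezo1 KO library below every WT library (log2 fold change −0.22 ± 0.08 SE, 95% interval −0.41 to −0.03, adjusted p = 0.296, edgeR). Rac1 was at 773, 805 and 840.1 CPM in Piezo1 KO and at 799, 762 and 794 CPM in WT, a log2 fold change of 0.04 with an interval of −0.14 to 0.22. The exons of Rac1 overlap those of Daglb on the opposite strand over 51.4% of their length.

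Rhob, an immediate early relative of RHOA, did not overlap between the groups, at 8.58, 9.36 and 8.03 CPM in Piezo1 KO and 6.59, 7.20 and 6.30 CPM in WT (log2 fold change 0.37 ± 0.17 SE, adjusted p = 0.402, edgeR). Rhoa, which drives stress fibres and contraction, was at 471, 523 and 527 CPM in Piezo1 KO and at 503, 442 and 512 CPM in WT. Of its effectors, the kinase gene Rock1 was at 142 to 160.3 CPM in Piezo1 KO and 130.4 to 162 CPM in WT, and Rock2 was at 53.4 to 72.2 CPM in Piezo1 KO and 58.99 to 81.7 CPM in WT. The formin gene Diaph1, whose protein elongates filaments, was at 41.3 to 51.1 CPM in Piezo1 KO and 43.1 to 53.1 CPM in WT. Was, which encodes the blood cell activator of branched actin WASP, was at 73.0 to 78.4 CPM in Piezo1 KO and 76.1 to 88.8 CPM in WT, and Wasf2, a WAVE subunit, had a log2 fold change of −0.0078 with an interval of −0.21 to 0.20. Myh9, the heavy chain of myosin IIA, was at 732, 537 and 590.03 CPM in Piezo1 KO and at 635, 605 and 394 CPM in WT, and with 12.9 kb of exons it was again low in WT replicate 3.

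Actin and its binding proteins were among the most abundant transcripts of the members, and Gsn was the one called. Gsn (chromosome 2, 35256380 to 35307892, plus strand) was at 265, 251 and 245 CPM in Piezo1 KO and at 183, 184 and 173 CPM in WT, on 2308 to 7270.0 counts per library. All 3 Piezo1 KO libraries exceeded all 3 WT libraries. The mean was 253 ± 10.3 CPM in Piezo1 KO and 179.98 ± 6.06 CPM in WT (SD, n = 3 each). Gsn was thus 1.41-fold higher in Piezo1 KO (log2 fold change 0.49 ± 0.08 SE, 95% interval 0.30 to 0.69, adjusted p = 0.0306, edgeR). The value lay between 0.45 and 0.52 under 14 other ways of processing, and 9 of them passed. The call was lost without Piezo1 KO replicates 1 (0.142), 2 (0.194) and 3 (0.139) and without WT replicate 1 (0.145), and kept without WT replicates 2 (0.0343) and 3 (0.0437). Macrophages and fibroblasts also express Gsn, and their part in its rise was not tested. Pdgfrb, a marker of mesenchymal cells, rose with it (5.60-fold), while Col1a1 stayed at 0.13 to 0.34 CPM in Piezo1 KO and 0 to 0.21 CPM in WT. Of 7 myeloid markers tested, 0 passed in edgeR and 5 had an unadjusted p under 0.05, which 13.2% of all genes had. DESeq2 called 2 (Cd63 and Kit), and 2 of the 7 fold changes were positive and 5 negative. The positive ones were Cd68, at 3.09 to 4.18 CPM in Piezo1 KO and 1.91 to 2.84 CPM in WT, and Cd63, at 4.78 to 7.43 CPM in Piezo1 KO and 3.07 to 3.15 CPM in WT, both without overlap. The macrophage marker Csf1r was at 0 to 0.38 CPM in Piezo1 KO and 1.05 to 1.12 CPM in WT, and Adgre1 was at 0.34 to 0.93 CPM in Piezo1 KO and 0 to 0.54 CPM in WT. Lyz2 and Itgam had negative fold changes, with overlap between the groups. Lyz2 was at 0.34 to 1.35 CPM in Piezo1 KO and 1.06 to 6.75 CPM in WT, and Itgam at 0.04 to 0.52 CPM and 0.42 to 1.27 CPM.

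The actin genes themselves were not called. Actb, the beta-actin gene, was at 18925, 17892 and 16108 CPM in Piezo1 KO and at 18496, 20832 and 17703 CPM in WT (log2 fold change −0.11, 95% interval −0.31 to 0.10), and Actg1, the gamma-actin gene, was at 6900.1, 7128 and 6589.6 CPM in Piezo1 KO and at 6639, 7837 and 6258 CPM in WT (−0.0082, interval −0.23 to 0.21). Coro1a, whose protein coronin 1A works with the Arp2/3 complex in leukocytes, was at 1869, 1889 and 1729.8 CPM in Piezo1 KO and at 1923, 2439 and 2211 CPM in WT, without overlap (log2 fold change −0.26 ± 0.10 SE, adjusted p = 0.319, edgeR). Of the monomer-handling proteins, Pfn1 (profilin) had a log2 fold change of −0.0066 and Cfl1 (the severing protein cofilin) of 0.09. Tmsb4x, the monomer-sequestering thymosin beta 4, spread widely, at 5845, 8071 and 7571 CPM in Piezo1 KO and at 5828, 3204 and 7688 CPM in WT. With 1.37 kb of exons it is the shortest member, and it was low in WT replicate 2, as short transcripts were over all genes. Its interval of −0.28 to 1.00 was wide for a transcript of this level. Not all members followed the length trend. Of 17 members under 5 kb, 7 were higher in WT replicate 3 than in WT replicate 2. Of 21 members of 5 kb or more, 16 were lower in WT replicate 3.

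The ERM proteins, which tie actin to the membrane, were not called either. Msn (moesin) was at 1318, 1161 and 1221 CPM in Piezo1 KO and at 1438, 1562 and 1172 CPM in WT, and Ezr (ezrin) was at 403, 353 and 344 CPM in Piezo1 KO and at 355, 396 and 327 CPM in WT. The adjusted p was 0.593 for Msn and 0.944 for Ezr (edgeR).

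**Figure D3:**
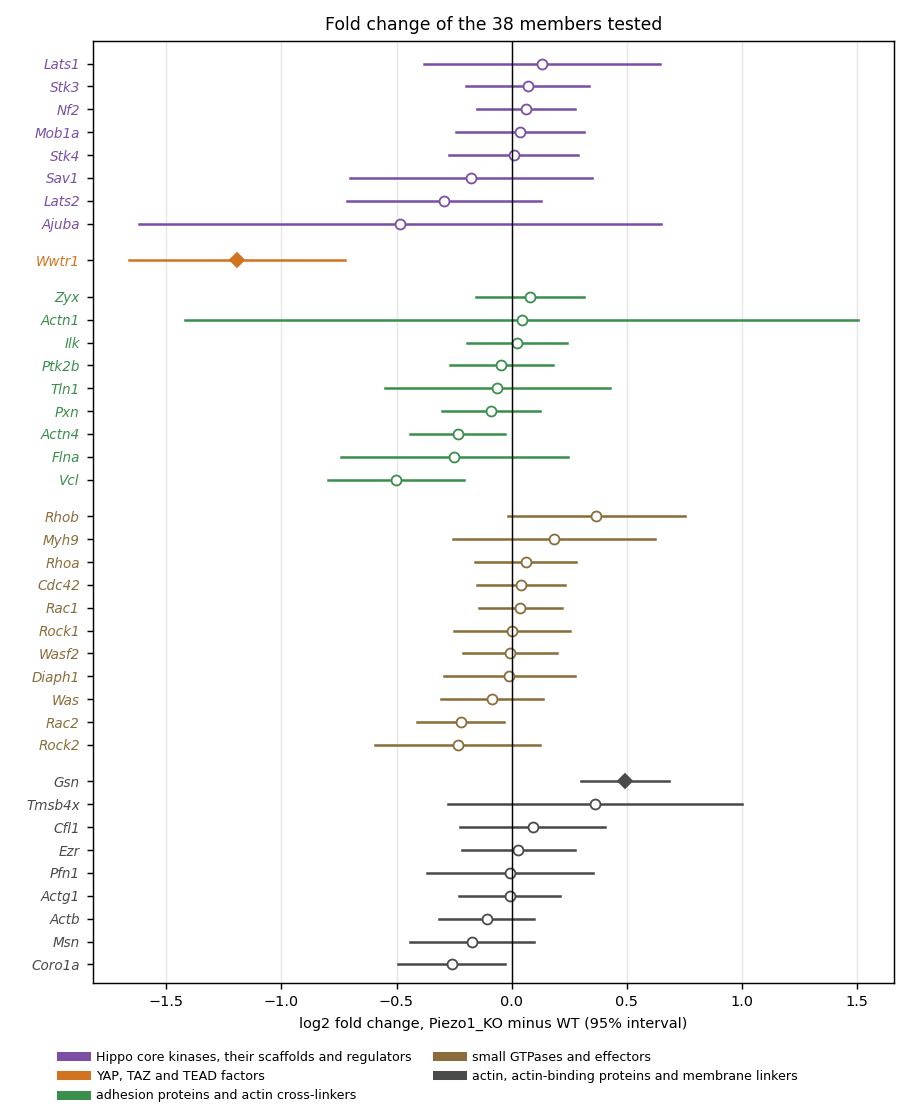
log2 fold change (Piezo1 KO minus WT) of the 38 members tested with 95% intervals, grouped by role, with filled diamonds for an adjusted p under 0.05 and open circles for the rest. Wwtr1 at −1.19 and Gsn at 0.49 are the filled points, and most other intervals cross 0.

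The groups did not overlap for 7 of the 38 members (Wwtr1, Vcl, Actn4, Rac2, Coro1a, Rhob and Gsn), or 18.4%, and for 20.6% of all genes tested. Of the 7, 5 were lower in Piezo1 KO and 2 higher, which was so of 10.5% and 10.1% of all genes. An unadjusted p under 0.05 was found for 6 of the 38, or 15.8%, and for 13.2% of all genes. Both shares are near those of genes in general. Of the 6, 5 had lower values in Piezo1 KO (13.2% of the members, against 6.91% of all genes) and 1 a higher one (2.63%, against 6.3%).

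Paralog use was compared within libraries as the share of one gene in a pair, per exon kilobase, for 8 pairs. With 3 libraries against 3 the exact permutation test cannot give a two-sided p below 0.1, so no share could pass, and the Benjamini-Hochberg adjusted p over the 8 pairs was 0.32 or more. Rac2 made up 52.9%, 52.0% and 48.8% of the RAC pair in Piezo1 KO and 54.1%, 56.9% and 56.1% in WT, a difference of −4.45 percentage points without overlap (exact p = 0.1). Msn made up 62.9%, 63.1% and 64.8% of the moesin and ezrin pair in Piezo1 KO and 67.8%, 67.2% and 65.0% in WT, a difference of −3.07 points without overlap (exact p = 0.1). Actb made up 71.8% ± 1.21 of the actin pair in Piezo1 KO and 73.2% ± 0.64 in WT (SD, n = 3). Stk4 made up 93.6% ± 0.14 of the MST pair in Piezo1 KO and 93.8% ± 0.69 in WT. Rock1 made up 65.5% ± 4.56 of the ROCK pair in Piezo1 KO and 61.7% ± 4.82 in WT, and Rhob 5.18% ± 0.47 of the sum of Rhob and Rhoa in Piezo1 KO and 4.24% ± 0.61 in WT. Paralogs share sequence, the actin pair above all, so how reads were divided between them is uncertain.

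**Figure D4:**
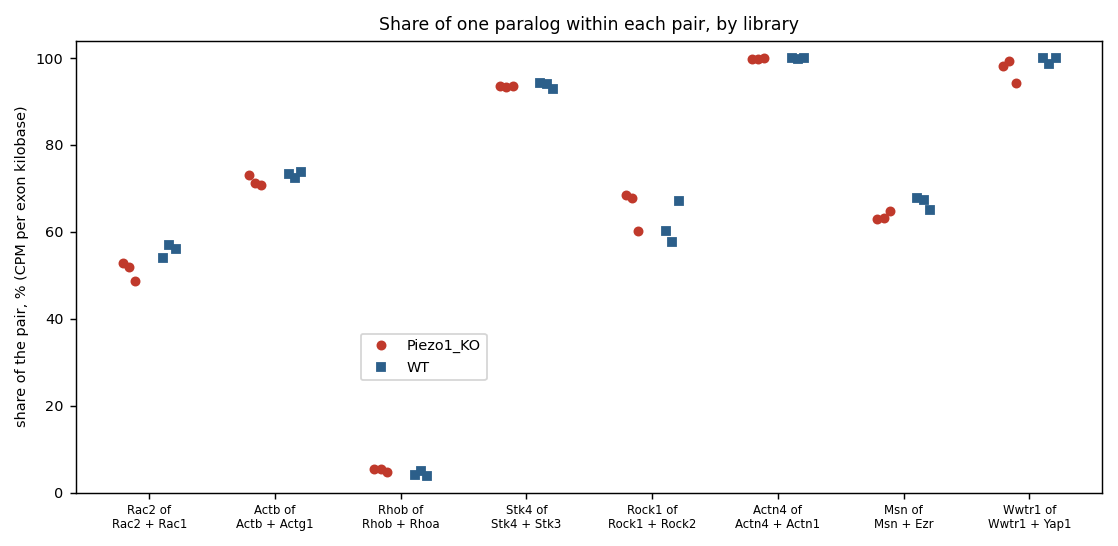
Share of one paralog within each of 8 pairs, in percent of the summed CPM per exon kilobase, with Piezo1 KO libraries as circles to the left of WT libraries as squares. The shares of Rac2 and of Msn are lower in each Piezo1 KO library than in each WT library, with mean differences of −4.45 and −3.07 percentage points.

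Beyond the members, 5 function-based lists covered other parts of the actin machinery and its transcription, and held 0 called genes in edgeR, with median log2 fold changes between −0.11 and 0.05. Over all 14149 genes tested, 13.2% had an unadjusted p under 0.05 and DESeq2 called 593. Among 22 tested Arp2/3, WAVE and WASP regulators, 4 had an unadjusted p under 0.05 and DESeq2 called 2, and the smallest p was that of Cttn (cortactin), at 42.1, 37.9 and 43.8 CPM in Piezo1 KO and 29.1, 33.6 and 24.5 CPM in WT (adjusted p = 0.142, edgeR). Among 41 other actin-binding proteins, 6 had an unadjusted p under 0.05 and DESeq2 called 3. Among 13 myosin II and ROCK substrate genes, 2 had an unadjusted p under 0.05 and DESeq2 called 1, Myo1f, a leukocyte class I myosin, at 49.0, 41.9 and 41.2 CPM in Piezo1 KO and 29.3, 31.3 and 23.3 CPM in WT (adjusted p = 0.0717). Among 18 focal adhesion adaptors, 5 had an unadjusted p under 0.05 and DESeq2 called 1, Ptk2, which encodes focal adhesion kinase, at 13.8, 14.4 and 16.9 CPM in Piezo1 KO and 24.1, 25.4 and 20.4 CPM in WT (adjusted p = 0.0809). Among 13 SRF and MRTF genes and targets, which include Vcl, Actb and Actg1, 2 had an unadjusted p under 0.05, and DESeq2 called those 2, Vcl and Fos, an immediate early gene at 8.41, 7.60 and 6.15 CPM in Piezo1 KO and 12.5, 14.6 and 11.6 CPM in WT (adjusted p = 0.0851, edgeR).

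**Figure D5:**
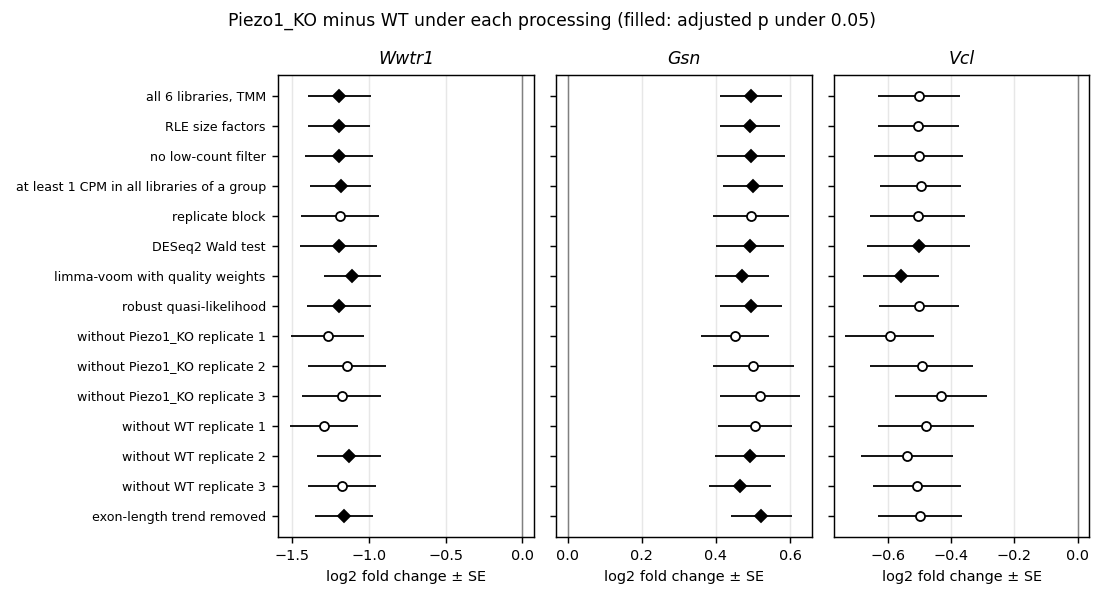
log2 fold change ± SE (Piezo1 KO minus WT) of Wwtr1, Gsn and Vcl with all 6 libraries and under 14 other ways of processing, with filled diamonds for an adjusted p under 0.05. The values stay on 1 side of 0 throughout, between −1.29 and −1.11 for Wwtr1 and between 0.45 and 0.52 for Gsn, while the calls come and go as libraries are left out.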

How the data were processed

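RNA of 6 libraries was measured per gene. The authors deposited estimated counts, which need not be whole (37.9% to 47.4% of values in a library were not) and are not scaled between libraries. Per the submitters' processing notes, reads were placed on mm10. The sources used here do not give the aligner, the counter, the annotation or whether strand was kept. Groups and replicate numbers came from the sample titles, and libraries were matched to samples by the description in the labels.

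Counts were rounded, filtered with filterByExpr (minimum count 10, 14149 of 18057 genes kept), and scaled by TMM. The two-sided quasi-likelihood test of edgeR 4.0.16 (glmQLFit, glmQLFTest; R 4.3.3) compared Piezo1 KO with WT, and p-values were adjusted over the genes kept (Benjamini-Hochberg). SEs are the absolute log2 fold change divided by the square root of F, and 95% intervals use the fit's degrees of freedom. Exon lengths and positions are from GENCODE release M21 (GRCm38, which is mm10). Replicates differed by more than sampling noise (chi-square per gene of 10.8 to 60.7, where 1 is noise alone). On simulated data the fit recovered 14% of 50 genes changed 1.5-fold, 64% of 50 changed 2-fold and 82% of 50 changed 4-fold. Of its 122 calls there, 6 were false. These rates describe the simulated libraries only. Whether they hold where libraries differ by shifts shared across many genes, as some WT libraries did here, was not tested.

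The 41 members and the 13 lists (297 symbols named, some of them older and newer names of the same gene, 243 in the table) were chosen with earlier results of these data known. Genes named in the text are all members, Piezo1, and from each pathway list the called genes with the smallest p (up to 3), or the gene with the smallest p where none was called, predicted genes left out. Marker genes named, Crim1, Myc and Arhgef17 were chosen after their values were seen. DESeq2 1.42.0 and limma 3.58.1 served as alternatives. Protein sequences were not used here. The results of 1 list and of 1 gene of another list are not reported here.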

Additional observations from a re-analysis of the deposited data

How the results depend on the processing

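13 other settings, and a removal of the exon-length trend chosen after seeing the data, were run. The 214 genes called became 593 in DESeq2, 439 in limma-voom with quality weights and 435 with the length trend removed, and 33 to 297 when single libraries were left out (35, 33 and 53 without Piezo1 KO replicates 1, 2 and 3, and 34, 297 and 237 without WT replicates 1, 2 and 3). The 2 members called became 0 to 2 when single libraries were left out, with 3 to 10 members at an unadjusted p under 0.05, and the median log2 fold change of the members lay between −0.074 and 0.014. Libraries with the same replicate number did not deviate together from their group means (correlations of deviations −0.023, −0.18 and −0.0075). With 3 libraries per group this cannot exclude a pairing. With the replicate block 52 genes and 0 members were called (edgeR), with 3 members at an unadjusted p under 0.05. The log2 fold change of Piezo1 passed in DESeq2 (−0.85), limma-voom (−0.93) and with the length trend removed (−0.84), and lay between −1.05 and −0.70 without single libraries. No member outside Wwtr1, Gsn and Vcl passed under any alternative. Neither member called changed direction, and 20 of the 36 uncalled members did in at least 1 alternative; the cause was not tested. Rock1 was at −0.0011 with RLE factors, −0.00082 in DESeq2, −0.079 in limma-voom and −0.030 with the length trend removed. In limma-voom Stk4 was at −0.045, Mob1a at −0.0051, Actn1 at −0.070, Diaph1 at 0.0022 and Actg1 at 0.027. With the length trend removed Wasf2 was at 0.0035, Actg1 at 0.0083 and Pfn1 at 0.0039, and Pfn1 was at 0.017 with the replicate block. Without single libraries the log2 fold change ran from −0.10 to 0.076 for Stk4, −0.42 to 0.013 for Sav1, −0.087 to 0.27 for Lats1, −0.073 to 0.097 for Mob1a, −0.26 to 0.046 for Tln1, −0.0011 to 0.14 for Zyx, −0.041 to 0.059 for Ilk, −0.10 to 0.0032 for Ptk2b and −0.27 to 0.50 for Actn1. It ran from −0.019 to 0.10 for Rhoa, −0.0020 to 0.056 for Rac1, −0.0040 to 0.063 for Cdc42, −0.11 to 0.061 for Rock1, −0.090 to 0.081 for Diaph1, −0.068 to 0.037 for Wasf2, −0.0028 to 0.31 for Myh9, −0.076 to 0.074 for Actg1, −0.056 to 0.24 for Cfl1, −0.18 to 0.17 for Pfn1 and −0.053 to 0.087 for Ezr. Depth limits Yap1, Tead1, Tead2, Ajuba and Actn1, which had 0 to 33 counts per library.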
